A study of Sus scrofa with 17 samples.

Results

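Right ventricular myocardium of pigs that had received several doses of umbilical cord blood mononuclear cells was compared with that of pigs that had received 1 dose. The comparison held all 7 multidose and all 5 single-dose libraries of the series, 12 of its 17 libraries, chosen by the group named in the sample titles. It was made on the 15884 of 35670 annotated genes that passed a filter on low counts. The other 5 libraries came from pigs given vehicle, and their values are printed beside the dosed groups as the level without cells.

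The pigs belonged to a model of right ventricular pressure overload, which was common to all 3 groups, and the cells were injected into the myocardium. Each library was 1 animal, with total RNA from frozen tissue sequenced once. The submitters' text speaks of random allocation, of several harvest times and of records of sex, weight and batch, but no library's dose, interval, harvest time, sex, weight or batch was given in the labels used here. Because nothing ties a library to a harvest time, the groups may differ in time as well as in dosing, and these cannot be told apart.

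Umbilical cord blood mononuclear cells are a mixture of lymphocytes, monocytes and a small population of blood stem and progenitor cells. They are studied in the heart mainly for the factors they secrete, which act on vessels, immune cells and muscle. A right ventricle that pumps against high pressure thickens, returns to parts of the fetal gene programme, with natriuretic peptides among its best known markers, and deposits matrix.

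The tissue label matched the data: the cardiomyocyte markers, of which 17 of 20 listed were measured, summed to 89217 to 120420 CPM (counts scaled to a common library size) in multidose, 91707 to 111150 in single-dose and 72767 to 110770 in vehicle libraries. Total counts ran from 21754800 to 48330971 in multidose and from 22137165 to 53317361 in single-dose libraries. The mean was 34899250 ± 11443180 (SD, n = 7) against 42370980 ± 12292980 (SD, n = 5), with a two-sided exact permutation p of 0.277 over all regroupings of the 12 libraries (0.553 adjusted over 2 tests). The share of counts from mitochondrially encoded genes was 19.0% ± 2.38 (SD, n = 7) and 18.8% ± 1.91 (SD, n = 5), exact permutation p = 0.888 in the same family. No 2 libraries had a correlation of log2 CPM above 0.986, and none was a copy of another. Sex was not given in the labels, but the 3 tested Y-linked genes separated the dosed libraries. Their median log2 CPM, relative to the mean of the dosed libraries, was -3.87 or lower in multidose 2, 4 and 7 and single dose 2 and 3. It was 3.29 or higher in the other dosed libraries. With Y-linked expression as a covariate, 0 genes were called.

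Library names split the dosed animals in a way the dosing did not. Names beginning with M1 belonged to 4 multidose libraries (1 to 4) and 1 single-dose library (1). Those beginning with M8 or M9 belonged to 3 multidose and 4 single-dose libraries. No vehicle library had an M1 name, so the vehicle ranges below cover M8 and M9 libraries only. What the name records is not stated in the labels. The suffix _R was on multidose 4, 6 and 7 and on single dose 2 to 5. The M1 libraries without it, multidose 1 to 3 and single dose 1, had 21754800 to 24356210 counts. All other dosed libraries had 40621934 or more, so M1 names, depth and suffix cannot be fully told apart. On the first principal component of the 12 dosed libraries, the M1 libraries lay between -56.1 and -25.6 and the others between 13.9 and 49.6, so the M1 names go with the main axis of variation and are unevenly shared between the groups. Multidose 5 stood apart on the second component, at 63.9. Values without the M1 libraries, that is for 3 multidose against 4 single-dose animals, are given beside lists and genes whose direction they turn. Values without multidose 5 or single dose 1 are given in the same way.

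No gene passed the test between multidose and single dose. At an adjusted p under 0.05 edgeR's quasi-likelihood test with Benjamini-Hochberg adjustment called 0 of 15884 genes (0%), and the lowest adjusted p was 1. DESeq2 and limma-voom also called 0. At an unadjusted p under 0.05 there were 335 genes, 2.11% of those tested, where 794.2 would be expected if no gene differed. Of these, 141 (0.888%) were higher and 194 (1.22%) lower in multidose animals. Over all tested genes 8028 (50.5%) had a positive log2 fold change, multidose minus single dose, and the median was 0.0018. Without the M1 libraries 417 of 16178 genes (2.58%) had an unadjusted p under 0.05, 207 of them higher (1.28%), and 49% of genes were positive. With all other libraries kept, the count was 764 without single dose 1, 510 without multidose 6, 524 without multidose 7, 217 without multidose 3, 203 without single dose 2 and 222 without single dose 3.

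The size of difference that could be resolved can be read from approximate standard errors. Each is the absolute log2 fold change divided by the square root of the quasi-likelihood F statistic. The spread behind it was estimated over all 17 libraries. Among the 13109 genes averaging 1 CPM or more, the median standard error of the log2 fold change was 0.173, with a 10th percentile of 0.108 and a 90th percentile of 0.346. Only 84 of them (0.641%) had an absolute log2 fold change above 1. The genes below are therefore described by their values, and none of them passed the test.

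**Figure D1:**
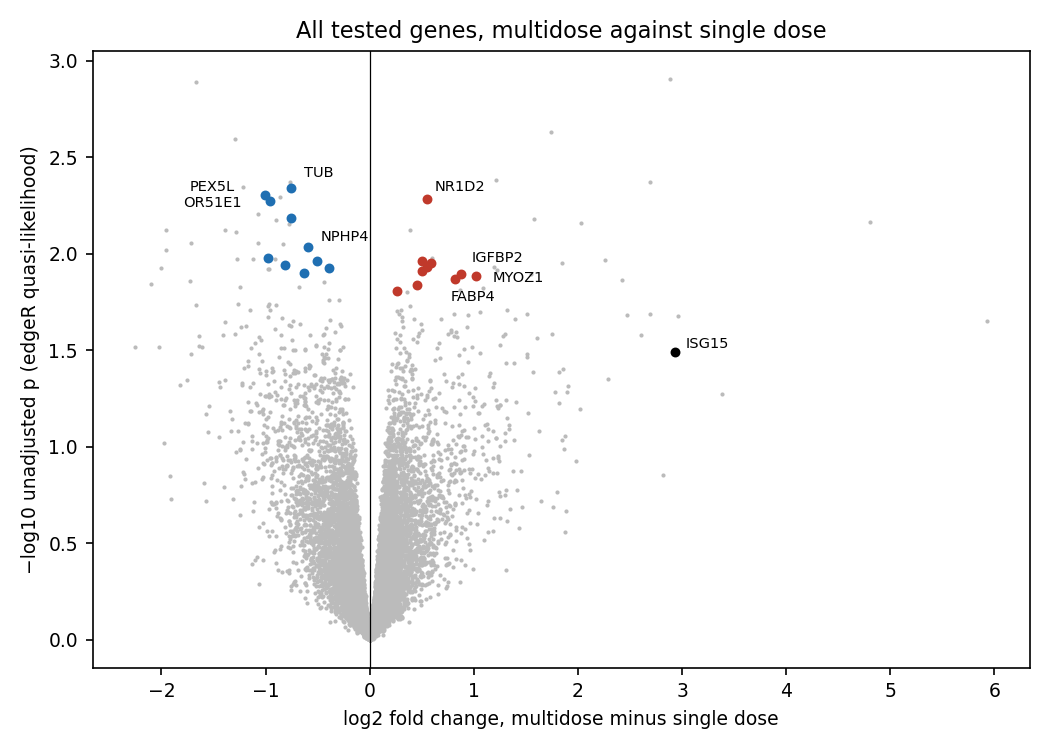
Each point is 1 of the 15884 tested genes, with its log2 fold change (multidose minus single dose) on the x axis and -log10 of its unadjusted edgeR p on the y axis. Red and blue points are the 10 named genes with the smallest p in each direction that have a gene symbol and average 1 CPM or more, black is ISG15, and every adjusted p was 1.

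Complete separation of the groups was rare. In 11 genes (0.0693% of those tested) no multidose value overlapped a single-dose value, with multidose above in 6 (0.0378%) and below in 5 (0.0315%). The 4 of them with a mean under 1 CPM were SLAIN1, MED12L and the unnamed genes ENSSSCG00000051671 and ENSSSCG00000053885, listed here after their values were seen. The other 7 are described next by their values. How many genes would separate in this way if no gene differed was not computed. The count was 80 without single dose 1, 42 without single dose 4 or multidose 7, 39 without single dose 5 and 31 without multidose 6. It was 28 without multidose 1 or multidose 5, 27 without multidose 4 or single dose 3, 24 without single dose 2 and 17 without multidose 3. Removing an animal leaves fewer values to overlap.

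NR1D2 encodes REV-ERB beta, a nuclear receptor that represses transcription in the circadian clock. Its multidose values lay between 71.1 and 119.8 CPM with a median of 74.9, and its single-dose values were 45.9, 68.2, 63.7, 57.5 and 66.8 CPM. The highest 3 multidose values all came from M1 libraries, and the vehicle animals, at 62.2 to 102 CPM, overlapped both groups. The log2 fold change was 0.55 (SE 0.17, edgeR quasi-likelihood adjusted p = 1), and 0.17 without the M1 libraries.

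PPP2CA encodes the catalytic alpha subunit of protein phosphatase 2A. It lay between 150.4 and 177 CPM with a median of 172 in multidose and at 131, 143, 146, 138 and 142 CPM in single-dose animals. The single-dose values were all below the lowest multidose value, and vehicle ran from 123 to 163 CPM. The difference on the log2 scale was 0.26 (SE 0.10), and 0.21 without the M1 libraries.

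TMEM38B encodes TRIC-B, a cation channel of the endoplasmic reticulum that supports calcium release. Multidose values lay between 9.75 and 16.1 CPM with a median of 11, and single-dose values were 9.62, 9.57, 9.47, 9.59 and 7.89 CPM. Multidose 1 was far above the other multidose animals, and 4 of 5 single-dose animals were nearly equal. Multidose minus single dose, the log2 difference was 0.31 (SE 0.13).

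ZFAND5, a zinc finger protein that stimulates the proteasome, lay between 204 and 246 CPM with a median of 223 in multidose and at 192, 199, 204, 193 and 173 CPM in single-dose animals. The nearest animals of the groups differed by less than 1 CPM, and vehicle values of 178 to 283 CPM overlapped both groups. Its log2 fold change was 0.23 (SE 0.12). GCFC2, a splicing-related factor, lay between 2.55 and 3.08 CPM with a median of 2.74 against 2.16, 2.44, 2.19, 2.2 and 1.95 CPM, a log2 fold change of 0.36 (SE 0.14).

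In the opposite direction, NPHP4, a protein of the ciliary transition zone, lay between 1.26 and 2.14 CPM with a median of 1.71 in multidose and at 2.16, 2.19, 3.24, 2.67 and 2.23 CPM in single-dose animals. The highest multidose animal was just under the lowest single-dose animal. Multidose minus single dose, the log2 difference was -0.59 (SE 0.20). KDM4A, a histone demethylase, lay between 23.6 and 25.9 CPM with a median of 24.7 against 26.7, 31.2, 26.1, 27 and 28.1 CPM, again a narrow gap, with a log2 fold change of -0.17 (SE 0.10).

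**Figure D2:**
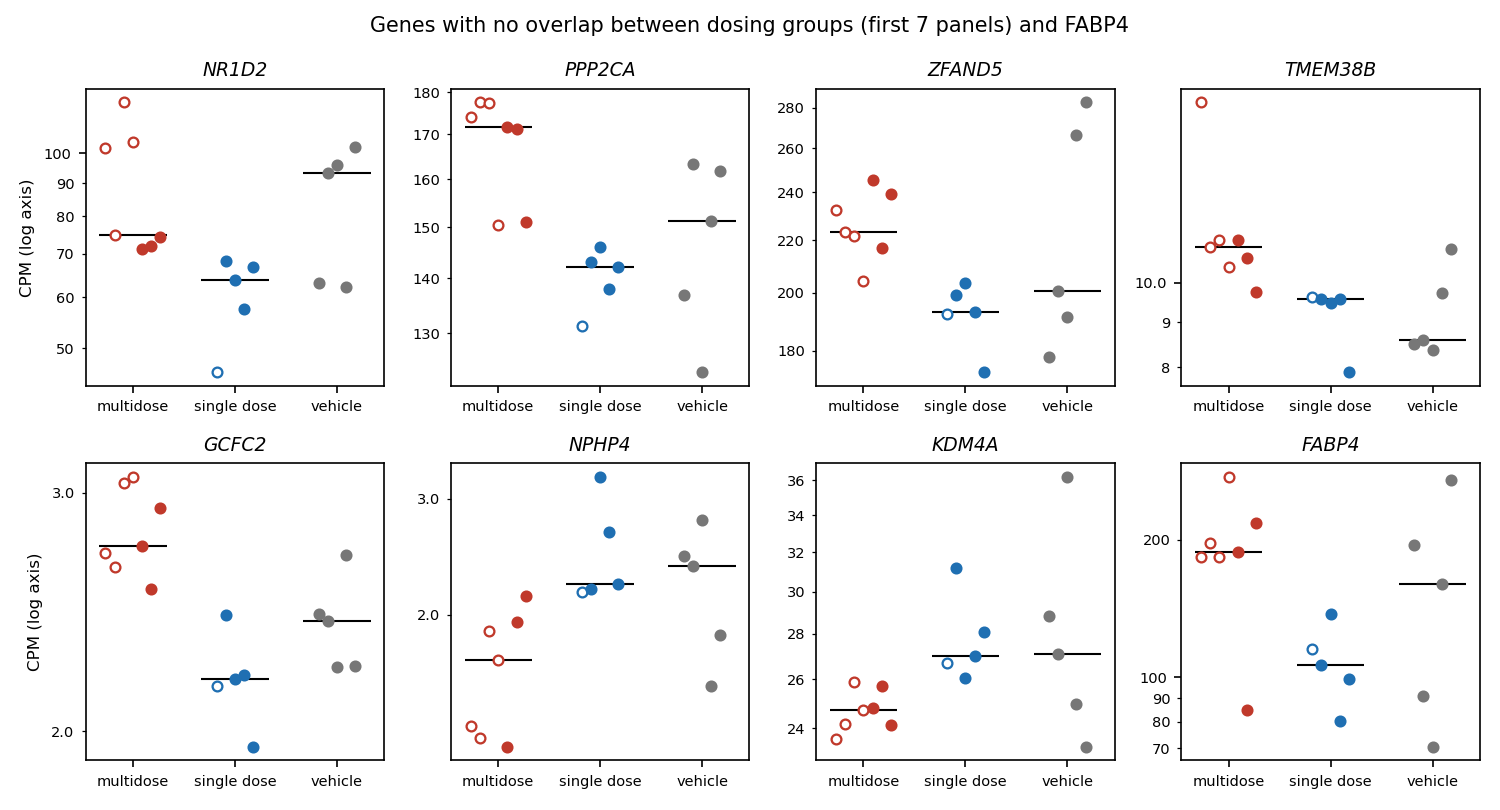
Expression in CPM (log axis) of the 7 genes averaging 1 CPM or more whose dosing groups do not overlap, and of FABP4. Each point is 1 animal, open symbols are libraries with M1 names, and bars are group medians. The vehicle values, in grey, overlap both dosed groups in each of the 8 panels.

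FABP4, a fatty acid carrier of capillary endothelium and fat cells, was among the named genes with positive fold changes. It lay between 84.8 and 275 CPM with a median of 188 in multidose animals, and the single-dose values were 115, 107, 138, 80.5 and 99 CPM. Only multidose 6, at 84.8 CPM, fell into the single-dose range, while vehicle ran from 70.6 to 269.7 CPM and overlapped both. Adipocyte markers, a list that holds FABP4, had 7 of 15 positive and a median of -0.027, and their sums ran from 1114 to 1900 CPM in multidose and from 992 to 1411 in single-dose animals. The log2 fold change was 0.81 (SE 0.30, edgeR quasi-likelihood adjusted p = 1), and 0.62 without the M1 libraries.

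IGFBP2, a binding protein that limits the access of insulin-like growth factors to their receptor, lay between 21.2 and 48.8 CPM with a median of 31.1 against 9.25, 7.48, 24.5, 27 and 19.7 CPM. Single dose 3 and 4 exceeded the lowest multidose animals, so the groups overlapped, and vehicle ran from 17.3 to 48.8 CPM. The difference on the log2 scale was 0.88 (SE 0.32), and 0.95 without the M1 libraries. MYOZ1, a Z-disc protein of fast skeletal muscle, was near 1 CPM, between 0.64 and 2.11 CPM with a median of 1.31 against 1.1, 0.785, 0.502, 0.408 and 0.46 CPM, with a log2 fold change of 1.02 (SE 0.37).

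The other named genes with positive fold changes were close in size to one another. GPAT3, an enzyme of triglyceride synthesis, stood at a log2 fold change of 0.50 (SE 0.18). GINS3, a subunit of the replicative helicase, had 0.50 (SE 0.18). LONRF1, a ring finger protein, had 0.59 (SE 0.21), HECTD2, a ubiquitin ligase, 0.55 (SE 0.20), and TSC22D2 0.46 (SE 0.17).

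The named genes with negative fold changes were mostly expressed at a few CPM. TUB lay between 1.39 and 2.37 CPM with a median of 1.91 in multidose and at 2.21, 2.79, 2.86, 4.81 and 4.01 CPM in single-dose animals, so that only single dose 1 overlapped the multidose group. Its log2 fold change was -0.75 (SE 0.23, edgeR quasi-likelihood adjusted p = 1), and -0.88 without the M1 libraries. PRSS22, a serine protease, lay between 3.7 and 13.2 CPM with a median of 8.61 against 6.17, 29, 17.9, 13.9 and 9.56 CPM, with single dose 2 the highest, and its log2 fold change was -0.98 (SE 0.34).

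CAPRIN2, an RNA-binding protein, lay between 6.99 and 11.4 CPM with a median of 8.87 against 11, 11.5, 12.7, 12.2 and 14.4 CPM, a log2 fold change of -0.39 (SE 0.14). OR51E1, an olfactory-type receptor, had -0.96 (SE 0.30), and PEX5L, a regulator of pacemaker channel trafficking, -1.01 (SE 0.31). SEZ6 had -0.75, PDZD9 -0.63, the transcription factor PLAGL2 -0.51 and the mitochondrial carrier family member SLC25A35 -0.82 on the log2 scale.

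Interferon-stimulated genes, which cells switch on after type I interferon signalling, leaned to positive values. Of 38 tested members 35 were positive, against 50.5% of all genes, the median log2 fold change was 0.50, and 0 passed the test. The list's summed level was 702 to 9513 CPM in multidose, 819 to 2149 in single-dose and 908 to 1560 in vehicle animals. The top of the multidose range was 1 animal, multidose 5. Without the M1 libraries, where multidose 5 is 1 of 3 multidose animals left, all 38 were positive, against 49% of genes, and the median was 1.5. With multidose 5 left out of that set as well, 29 of 38 were positive and the median was 0.16. From all libraries without multidose 5, 1 of 38 members was positive and the median was -0.24. Without single dose 1 the median was 0.99, and without both libraries it was 0.11.

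ISG15, a ubiquitin-like modifier, showed this most. It lay between 13 and 1632 CPM with a median of 23.9 in multidose animals, and the single-dose values were 91.6, 17.1, 22.9, 17.4 and 16.4 CPM. Multidose 5 was the highest of all animals and single dose 1 the highest of its group, while the other multidose animals stayed at or below 28.1 CPM, and vehicle ran from 22.9 to 44.5 CPM. Multidose minus single dose, the log2 difference was 2.93 (SE 1.26), and -0.65 without multidose 5.

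The same 2 libraries led IFI6, a mitochondrial interferon-induced protein, at between 64.2 and 2174 CPM with a median of 116 in multidose and at 276, 56.7, 73.6, 69.7 and 62.8 CPM in single-dose animals. IRF7, the transcription factor that amplifies interferon production, lay between 6.14 and 262 CPM with a median of 8.92 against 20.1, 8.33, 9.04, 12.1 and 11.4 CPM. Log2 fold changes were 1.90 (SE 0.91) for IFI6, 1.91 (SE 0.90) for IRF7 and 2.02 (SE 1.02) for the exonuclease ISG20, and each was negative without multidose 5. CXCL10, a chemokine that draws activated T cells, lay between 7.07 and 539 CPM with a median of 12.6 against 17.4, 31.8, 28.7, 28.2 and 16 CPM. Here single dose 1 was not high, and without multidose 5 the log2 fold change went from 1.86 to -0.81.

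Antigen presentation genes had 16 of 18 members positive and a median of 0.23, and 5 of 18 and -0.077 without multidose 5. B2M, the light chain of class I molecules, lay between 116 and 687 CPM with a median of 212 against 260, 166, 139, 126 and 101 CPM. TAP1, which pumps peptides to class I molecules, lay between 26.2 and 243 CPM with a median of 34.1 against 44.4, 44.3, 39.8, 33.3 and 36.9 CPM. In both genes multidose 5 was the highest animal and the rest of the groups overlapped. The proteasome activator PSME2 stood at 0.43 (SE 0.28) on the log2 scale and FCGR1A, the high-affinity IgG receptor, at 0.89 (SE 0.61). Multidose 5 was highest in these genes too, and without it TAP1 was at -0.28, PSME2 at 0.084 and FCGR1A at -0.32.

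**Figure D3:**
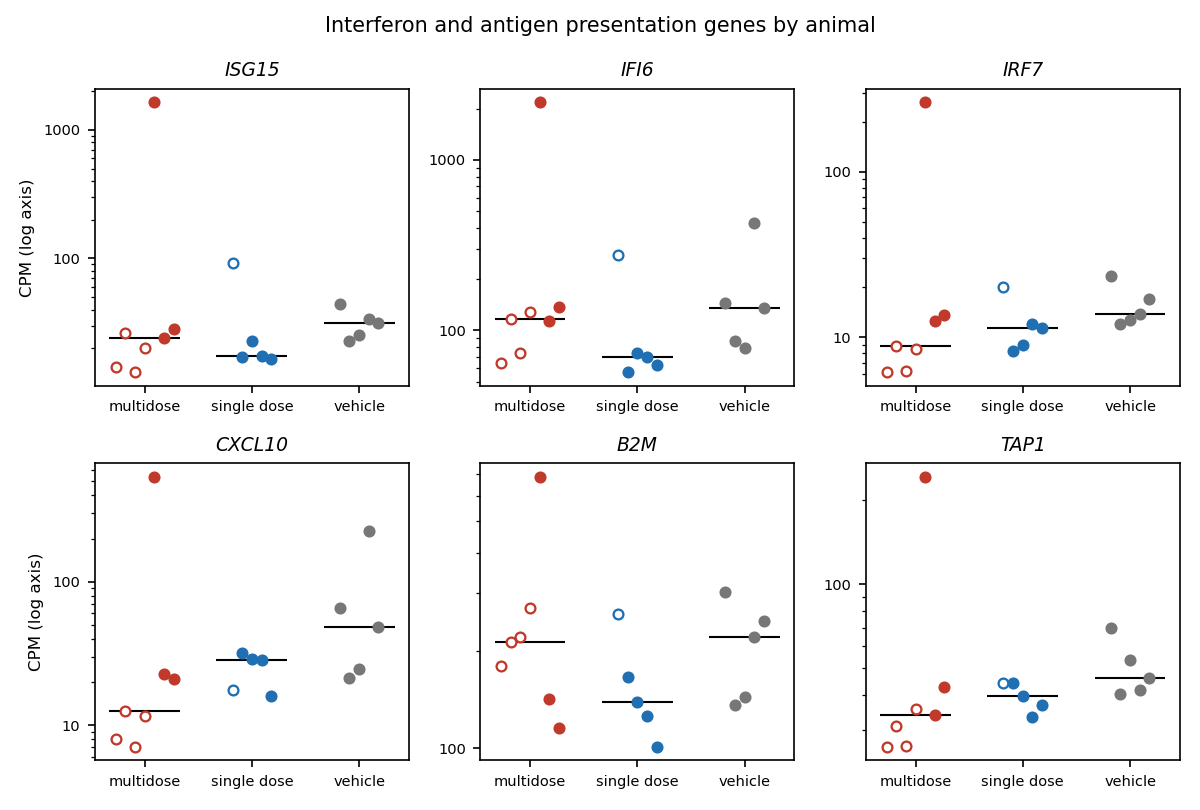
Expression in CPM (log axis) of 4 interferon response genes (ISG15, IFI6, IRF7, CXCL10) and 2 antigen presentation genes (B2M, TAP1), 1 point per animal, open symbols for M1 names, bars at group medians. Multidose 5 is the top point in every panel, at 1632 CPM for ISG15.

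T and natural killer cell markers leaned to negative values. Of 35 tested members 25 were negative, the median was -0.29, and 0 passed. An unadjusted p under 0.05 was found for 4 members, all negative, where the share over all genes was 1.22% in that direction. Their summed level was 69.9 to 208 CPM in multidose, 90.1 to 177 in single-dose and 87.9 to 276 in vehicle animals, so the ranges overlapped. Without the M1 libraries the median was -0.15, and with the name as a covariate -0.10. In each of these fits 0 of 35 members had an unadjusted p under 0.05. The median was -0.46 without multidose 5, -0.40 without single dose 1 and -0.56 without both. Members at an unadjusted p under 0.05 were then 6, 5 and 12. Over all genes such counts were 441 of 15886, 764 of 16092 and 1058 of 16085. In bulk tissue fewer cells of a type and less RNA per cell cannot be told apart.

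CD3E, a chain of the T cell receptor complex, lay between 0.847 and 2.78 CPM with a median of 1.43 in multidose animals and at 1.56, 5.08, 3.99, 3.98 and 2.59 CPM in single-dose animals. The 4 M1 multidose libraries were the lowest, single dose 1, also an M1 library, was the lowest of its group, and vehicle ran from 1.37 to 6.02 CPM. Multidose minus single dose, the log2 difference was -0.97 (SE 0.37), and -0.58 without the M1 libraries. The co-receptor CD6 followed the same order, between 0.0969 and 1.63 CPM with a median of 0.545 against 0.736, 2.71, 2.54, 1.9 and 2.04 CPM, with -1.24 (SE 0.46), and -0.76 without the M1 libraries.

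CD5, another T cell surface receptor, had a log2 fold change of -0.86 (SE 0.41). TBX21, the T-bet factor of type 1 lymphocytes, lay between 1.19 and 3.53 CPM with a median of 2.69 against 2.9, 5.58, 4.75, 4.28 and 5.74 CPM, so that single dose 1 alone fell within the multidose range, and had -0.81 (SE 0.38). Among cytokines and chemokines, 20 of 33 were positive and the median was 0.048, and 13 of 33 and -0.066 without multidose 5. CCL4 lay between 2.37 and 5.18 CPM with a median of 3.05 against 3.77, 8.06, 5.22, 3.77 and 6.75 CPM with -0.67 (SE 0.27), and TNF, below 1 CPM in most animals, had -1.17 (SE 0.51).

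Macrophage and monocyte markers had 17 of 28 positive and a median of 0.032. The direction turned without the M1 libraries, at 12 of 28 and -0.079, and without multidose 5 alone, at 9 of 28 and -0.079. Their sums of 537 to 958 CPM in multidose and 544 to 885 in single-dose animals covered almost the same range. Within the list SPP1, a matrix cytokine of activated macrophages, had -0.84 (SE 0.45) and lysozyme, LYZ, -0.85 (SE 0.56). B and plasma cell markers had 10 of 12 negative and a median of -0.12, but 7 of 12 positive and 0.044 without the M1 libraries. With the M1 name as a covariate 6 of 12 were positive and the median was -0.045. Of 16 neutrophil markers 5 were tested, 4 of them negative (2 of 4 without the M1 libraries), with sums no higher than 8.42 CPM in any animal.

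Immediate early genes, which respond within minutes to stretch and growth factors and also to tissue handling, had 23 of 35 negative, a median of -0.10 and 6 members with an unadjusted p under 0.05, all negative, where the share over all genes was 1.22% in that direction. The list turned when the M1 libraries were left out, with 25 of 35 positive and a median of 0.071, and without single dose 1 alone 18 of 35 were positive and the median was 0.0026. NR4A1, an orphan nuclear receptor, lay between 15.2 and 41.9 CPM with a median of 32.7 against 131, 37.6, 36.5, 39.2 and 27.4 CPM, with single dose 1 above all others. FOSB lay between 0.212 and 1.1 CPM with a median of 0.533 against 5.84, 0.558, 0.628, 1.14 and 0.441 CPM, with the same animal highest. Their log2 fold changes were -0.84 (SE 0.33) and -1.41 (SE 0.58), and 0.056 and 0.29 without the M1 libraries.

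Without single dose 1 alone, NR4A1 was still negative at -0.22 and FOSB at -0.14. EGR3, a zinc finger factor, and DUSP2, a phosphatase of MAP kinases, kept a negative sign without the M1 libraries too. EGR3 lay between 0.192 and 0.872 CPM with a median of 0.504 against 0.874, 0.785, 1.18, 0.693 and 1.64 CPM, with -0.97 (SE 0.38) and -1.03 without the M1 libraries. DUSP2 had -0.43 (SE 0.19) and -0.29 without them. Vehicle animals ran from 31 to 45.9 CPM for NR4A1, below single dose 1 in every case.

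Clock genes had 15 of 21 positive, a median of 0.063, and NR1D2 as the only member without overlap. PER1, a repressor of the clock, lay between 32.5 and 113 CPM with a median of 53.9 against 28.8, 51.4, 62.1, 38.7 and 35.5 CPM, with 0.48 (SE 0.29). CRY2, its partner, lay between 59.6 and 188 CPM with a median of 74.1 against 48.5, 57.9, 92.2, 71 and 80.7 CPM, with 0.41 (SE 0.26). Without multidose 5, PER1 was at 0.25 and CRY2 at 0.14. BMAL1, the activator that these repress, had -0.56 (SE 0.36), and 0.0052 without the M1 libraries. The hour of harvest was not given in the labels, so its part in these values was not tested.

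Natriuretic and cardiac stress genes had 10 of 23 positive and a median of -0.054. The direction turned without the M1 libraries, at 13 of 23 and 0.10, and with the M1 name as a covariate, at 20 of 23 and 0.19. NPPA, the atrial natriuretic peptide, lay between 59.6 and 4397 CPM with a median of 202 against 102, 2054, 1096, 588 and 1190 CPM. Multidose 6 was the highest and the M1 libraries of both groups were the lowest, and vehicle ran from 816 to 4795 CPM. The log2 fold change was -0.051 (SE 0.92), and 0.77 without the M1 libraries. NPPB, the B-type peptide, lay between 34.5 and 2434 CPM with a median of 337 against 11.6, 898, 1266, 1385 and 1507 CPM, with -0.44 (SE 0.92), and the single-dose M1 library was the lowest of all 12. NPPB was at 0.23 without the M1 libraries and at 0.99 with the name as a covariate.

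NPR1, the receptor of both peptides, was the member with the smallest p. It lay between 22.7 and 31.4 CPM with a median of 24.8 in multidose and at 25.9, 20, 16.9, 17.3 and 22.1 CPM in single-dose animals, with single dose 1 within the multidose range and the other single-dose animals below it. The difference on the log2 scale was 0.36 (SE 0.16, edgeR quasi-likelihood adjusted p = 1), and 0.60 without the M1 libraries. Vehicle ran from 20.8 to 44.3 CPM, and 4 of 5 vehicle animals were above every multidose animal.

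Of the sarcomere genes of the ventricle, the myosin heavy chains MYH7 and MYH6 had log2 fold changes smaller than their standard errors. MYH7, the slow beta myosin, had a mean of 19584 ± 5767 (SD, n = 7) CPM in multidose and 20328 ± 4235 (SD, n = 5) in single-dose animals, a log2 fold change of -0.054 (SE 0.28), and 0.14 without the M1 libraries. MYH6, the fast alpha myosin, had 0.10 (SE 0.33), and -0.022 without single dose 1. MYL2, the ventricular light chain, had 0.32 (SE 0.19), and -0.023 without the M1 libraries, and TNNC1, troponin C, 0.33 (SE 0.21). FHL1, a stretch-related LIM protein, had -0.41 (SE 0.29), with single dose 1 the lowest of its group.

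Isoforms of other muscle types were low and uneven. TNNI1, the slow skeletal and fetal troponin I, lay between 1.61 and 8.49 CPM with a median of 2.91 against 3.5, 1.12, 0.729, 1.67 and 0.901 CPM, with multidose 5 and 6 highest, and had 1.26 (SE 0.53). TNNI2, the fast skeletal troponin I, stayed under 1 CPM in every animal and had -1.19 (SE 0.48), and MYBPC2, the fast skeletal myosin-binding protein, -0.83 (SE 0.41). MYL4, the atrial and fetal light chain, had 0.87 (SE 0.56). The 10 tested skeletal genes had 4 positive members and a median of -0.19, and 5 and 0.0021 with the M1 name as a covariate.

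Calcium handling genes had 15 of 21 positive and a median of 0.049, and 10 of 21 and -0.0023 without multidose 5. PLN, phospholamban, the brake of the sarcoplasmic calcium pump, lay between 1139 and 2700.2 CPM with a median of 1825 against 2128, 1082, 1201, 926 and 1249 CPM, with multidose 1 highest, and had 0.46 (SE 0.26). Ion channels had 16 of 24 positive and a median of 0.072. KCNJ11, the pore of the ATP-sensitive potassium channel, had 0.48 (SE 0.29), and KCNA5, an ultrarapid potassium channel, 0.62 (SE 0.33), and 0.068 without the M1 libraries.

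**Figure D4:**
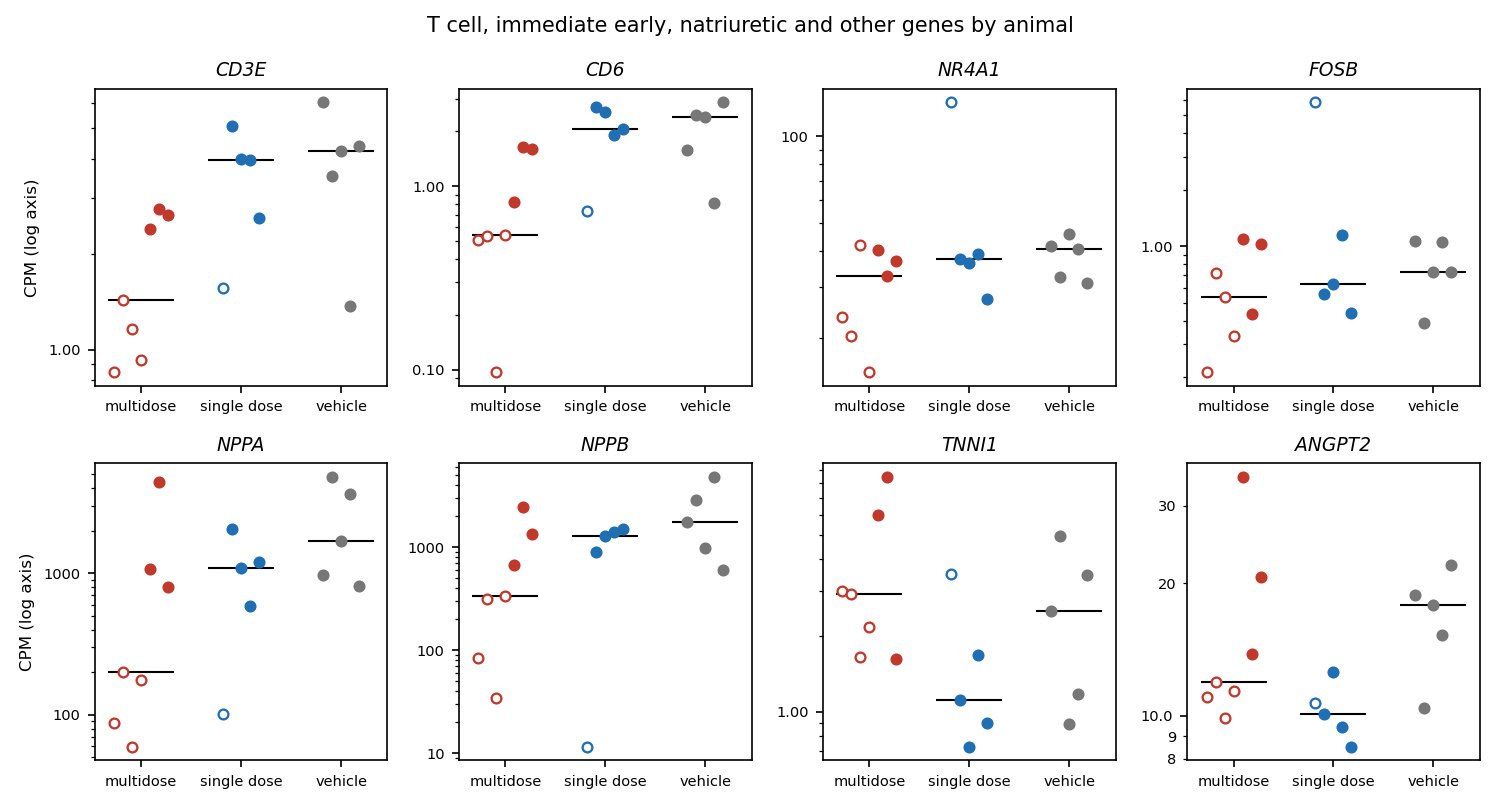
Expression in CPM (log axis) of 2 T cell genes (CD3E, CD6), 2 immediate early genes (NR4A1, FOSB), the natriuretic peptides NPPA and NPPB, TNNI1 and ANGPT2, 1 point per animal, open symbols for M1 names, bars at group medians. For NPPA and NPPB the open symbols of both dosed groups lie below all filled ones.

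Growth of vessels is one of the effects sought from this kind of cell therapy. Of 40 angiogenesis genes 24 were positive, with a median of 0.028, and -0.070 without the M1 libraries. ANGPT2, a ligand that loosens vessel walls during remodelling, lay between 9.88 and 34.9 CPM with a median of 11.9 in multidose and at 10.7, 10.1, 12.6, 9.42 and 8.51 CPM in single-dose animals. Multidose 5 and 7 were highest and 4 of the other multidose animals lay within the single-dose range. Multidose minus single dose, the log2 difference was 0.66 (SE 0.28), 1.18 without the M1 libraries and 0.36 without multidose 5.

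VEGFA, the main vessel growth factor, lay between 81 and 172 CPM with a median of 107 against 98.1, 170, 168, 116 and 86.9 CPM, with -0.19 (SE 0.22). Its receptor FLT1 had 0.26 (SE 0.19), the growth factor FGF2 0.33 (SE 0.17) and the Notch ligand DLL4 -0.30 (SE 0.21). Endothelial markers had 15 of 24 positive and a median of 0.090, and 12 of 24 and 0.0048 without the M1 libraries. With multidose 5 left out as well they had 17 of 24 and 0.081. PECAM1 lay between 209 and 382 CPM with a median of 270.0 against 281, 279, 256, 221 and 235 CPM, with 0.11 (SE 0.16), and -0.10 without the M1 libraries. CLEC14A had 0.24, BTNL9 0.33 and EGFL7 -0.22 on the log2 scale. The summed endothelial level was 2169 to 3109 CPM in multidose, 2113 to 2601 in single-dose and 2267 to 3735 in vehicle animals.

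Mural cell markers had 11 of 16 negative and a median of -0.12. CNN1, a smooth muscle calponin, lay between 57.5 and 471 CPM with a median of 168 against 47.9, 1120, 316, 288 and 398 CPM, with single dose 2 highest and the M1 libraries of both groups low, and had -0.94 (SE 0.57). Lymphatic endothelial markers had 6 of 7 positive and a median of 0.34, and -0.45 without the M1 libraries. Schwann and neural markers had 7 of 15 positive and a median of -0.065, and -0.77 without them. That list turned the other way without single dose 1, at 11 of 15 and 0.21, and without multidose 5, at 10 of 15 and 0.077. PMP22, a peripheral myelin gene, had 0.36 (SE 0.18).

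Over all libraries scarring genes gave no common direction, and without the M1 libraries the matrix and fibroblast lists leaned negative. Matrix genes had 22 of 44 positive and a median of -0.0028, and 8 of 43 and -0.26 without the M1 libraries. Fibroblast markers had 13 of 19 positive and a median of 0.085, and 2 of 19 and -0.35 without them. With the M1 name as a covariate 14 of 44 and 4 of 19 were positive, with medians of -0.088 and -0.17. Without the M1 libraries and multidose 5 the counts were 2 of 44 and 2 of 19, with medians of -0.31 and -0.29. COL1A1, the main fibre collagen, lay between 682 and 1405 CPM with a median of 967 against 1230, 958, 953, 1962 and 1389 CPM, with -0.34 (SE 0.24). COL3A1, the collagen of finer fibres, had 0.085 (SE 0.33), and -0.39 without the M1 libraries.

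Genes of TGF-beta and BMP signalling had 32 of 38 positive and a median of 0.091, and 27 of 38 and 0.094 without the M1 libraries. Among ligands, BMP6 had 0.48 (SE 0.31) and GDF10 -0.76 (SE 0.39). The receptor TGFBR1 had 0.27 (SE 0.16), and SOSTDC1, a secreted BMP antagonist, -0.87 (SE 0.49), with single dose 1 highest, and 0.012 without the M1 libraries.

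Secreted growth factors had 22 of 30 positive and a median of 0.064, and 16 of 30 and 0.019 without the M1 libraries. With multidose 5 left out as well they had 15 of 30 and -0.00070. BDNF, a neurotrophin, lay between 0.145 and 3.07 CPM with a median of 0.941 against 0, 0.434, 0.226, 0.489 and 0.147 CPM. It was near or below 1 CPM in 11 of the 12 animals, multidose 6 was the highest, and the log2 fold change was 1.85 (SE 0.83). AREG, an epidermal growth factor receptor ligand, had 0.81 (SE 0.54), and CSF3, the granulocyte growth factor, -0.69 (SE 0.37). Of 9 blood stem and progenitor markers 5 were positive with a median of 0.018 (4 and -0.042 without single dose 1), and PROM1, also found on other cells, had -0.54 (SE 0.25). Whether injected cells remained in the tissue was not measured.

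Energy metabolism lists had small medians. Fatty acid uptake and oxidation had 23 of 32 positive and a median of 0.15, 0.17 without the M1 libraries and 0.081 without single dose 4. LPL, which frees fatty acids from lipoproteins, lay between 677 and 1225 CPM with a median of 808 against 641, 634, 883, 569 and 495 CPM, with 0.39 (SE 0.21). HADHA, an enzyme of mitochondrial beta oxidation, had 0.29 (SE 0.17), SLC25A20, the carnitine carrier, 0.30 (SE 0.17) and UCP2, an uncoupling protein, -0.44 (SE 0.21). In the glycolysis and TCA list, 26 of 44 were positive with a median of 0.0081. That direction turned with upper-quartile scaling, at 20 of 44, and without multidose 5, at 19 of 44. PFKFB3, a switch of glycolytic rate, had -0.41 (SE 0.21).

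Cytoplasmic ribosomal proteins had 62 of 64 members positive and a median of 0.21. Without the M1 libraries 18 of 64 were positive and the median was -0.10. RPL22 lay between 167 and 466 CPM with a median of 353 against 394, 209, 162, 178 and 181 CPM, and the 5 M1 libraries, 4 multidose and 1 single dose, held the 5 highest values. RPS24 had 0.46 (SE 0.28) and RPS27A 0.49 (SE 0.30). Ribosomal protein genes have near-identical processed copies in the genome, so their counts are uncertain.

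Nuclear genes of the respiratory chain had 63 of 68 positive and a median of 0.10, and 35 of 68 and 0.00017 without the M1 libraries. With the M1 name as a covariate 28 of 68 were positive and the median was -0.014. COX6C, a subunit of cytochrome oxidase, lay between 400 and 819 CPM with a median of 632 against 733, 472, 491, 334 and 445 CPM, with 0.37 (SE 0.24). ATP5PF, of ATP synthase, had 0.32 (SE 0.21). Mitochondrial ribosomal proteins had 57 of 68 positive and a median of 0.10, 45 of 68 and 0.047 without the M1 libraries, and a median of 0.025 without single dose 4. Within the list, the log2 fold changes were 0.40 (SE 0.21) for MRPL33 and 0.23 (SE 0.12) for MRPS23. The 13 mitochondrially encoded genes had 9 positive and a median of 0.065, and 5 and -0.031 without multidose 5.

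**Figure D5:**
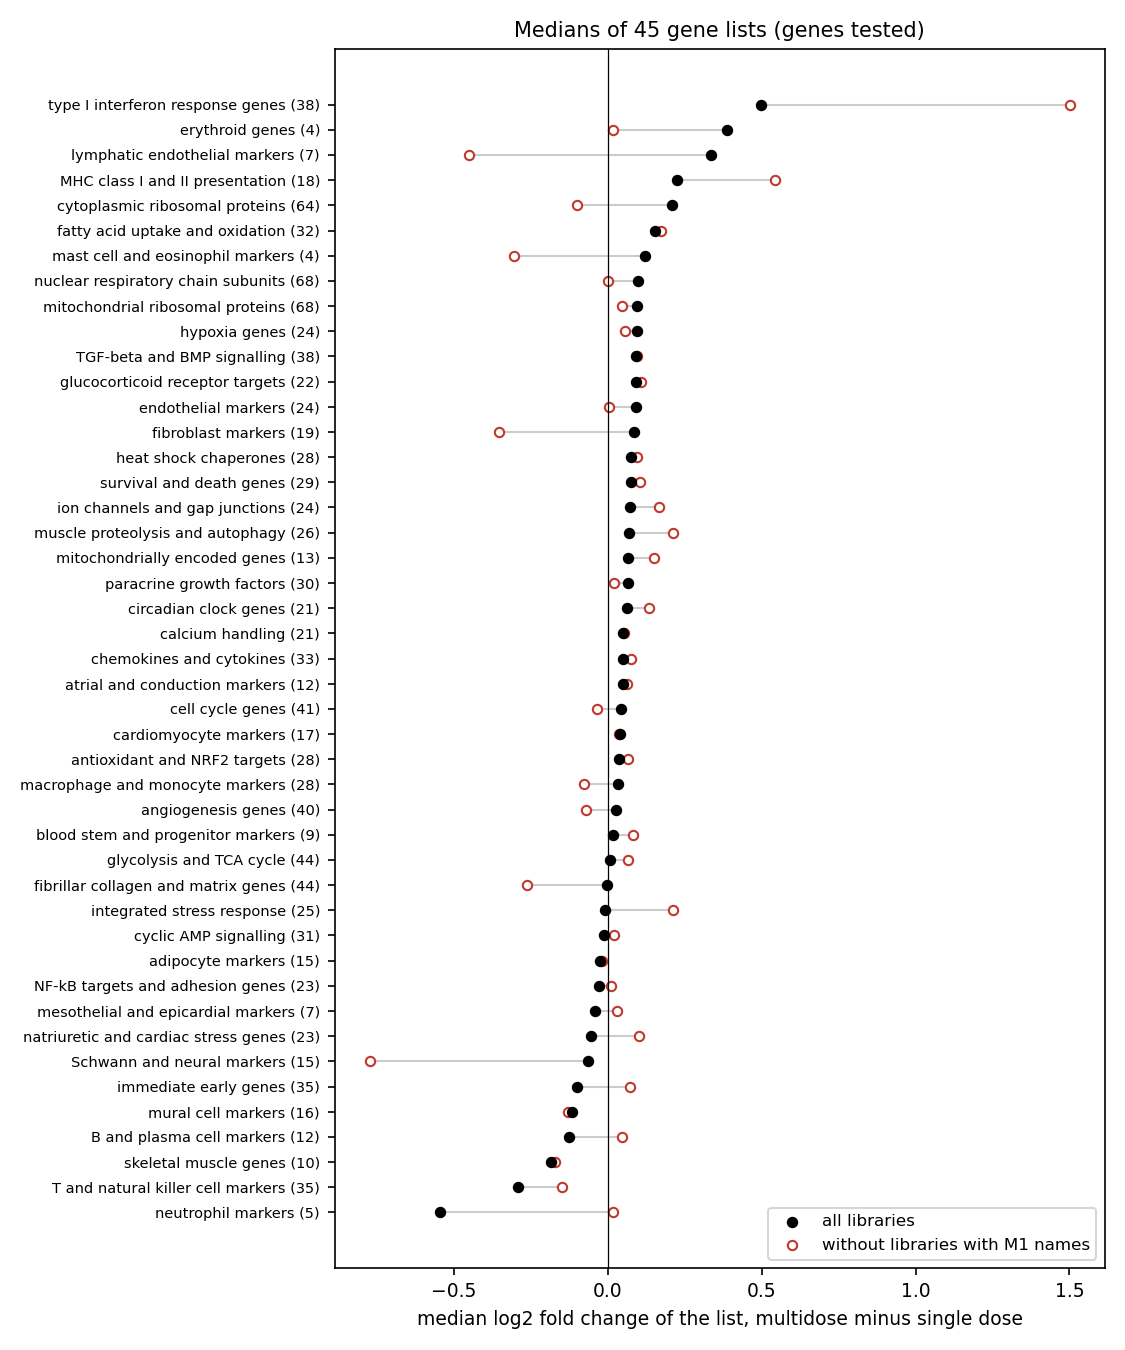
Median log2 fold change (x axis, multidose minus single dose) of 45 gene lists, with the number of tested genes in brackets. Filled points use all libraries and open points leave out the libraries with M1 names; the interferon list moves from 0.50 to 1.5 (0.16 when multidose 5 is left out too), and the ribosomal list from 0.21 to -0.10.

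In the stress lists, 18 of 28 heat shock chaperones and 16 of 28 antioxidant genes were positive, with medians of 0.076 and 0.035, the latter -0.014 without multidose 5. HSPB6, a small heat shock protein of muscle, had -0.44 (SE 0.32). GPX1, which removes hydrogen peroxide, lay between 99.9 and 174 CPM with a median of 147 against 139, 193, 160.3, 197 and 250 CPM, with -0.38 (SE 0.15). In the survival and death list 18 of 29 were positive, and APAF1, the scaffold of the apoptosome, had 0.47 (SE 0.22), with multidose 5 the lowest multidose animal.

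Cell cycle genes had 23 of 41 positive and a median of 0.043, and 19 of 41 and -0.034 without the M1 libraries. CCNE2, a cyclin of the G1 to S step, lay between 1.69 and 2.78 CPM with a median of 2.42 against 1.84, 1.82, 1.66, 2.04 and 1.93 CPM, with 0.36 (SE 0.19). MCM7, of the replicative helicase, had 0.20 (SE 0.13). Of 24 hypoxia genes 15 were positive, of 31 cyclic AMP genes 15 (18 without the M1 libraries), of 22 glucocorticoid targets 15, and of 26 proteolysis and autophagy genes 18, with absolute medians no larger than 0.0932.

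Among the remaining cell markers, the 4 tested erythroid genes of 16 listed were all positive, with a median of 0.39, 0.017 without the M1 libraries and -0.23 with the name as a covariate. Their sums ran from 52.3 to 478 CPM in multidose and from 25.8 to 637 in single-dose animals, and the groups overlapped. Atrial and conduction markers had 6 of 12 positive, mesothelial and epicardial markers 2 of 7, and mast cell and eosinophil markers 3 of 4. NF-kB targets had 11 of 23 positive and integrated stress response genes 12 of 25. With the M1 libraries left out these counts were 7 of 12, 4 of 7, 2 of 4, 12 of 23 and 16 of 25.

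TSPOAP1, a RIM-binding protein, was included because earlier results of these data set it apart between dosed and vehicle animals. It lay between 2.24 and 5.25 CPM with a median of 3.2 in multidose and at 4.37, 1.53, 4.85, 4.87 and 3.07 CPM in single-dose animals, against 0.47 to 1.34 CPM in vehicle. Every multidose value but 1 lay within the single-dose range, with a log2 fold change of -0.21 (SE 0.32).

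ACSM5, a medium-chain acyl-CoA synthetase family member, did not pass the low-count filter and was named after its values were seen. It lay between 0 and 0.101 CPM in multidose animals, and the single-dose values were 0.276, 7.87, 10.6, 6.93 and 0.0184. Single dose 2, 3 and 4 were high. Single dose 1 was far below them but above every multidose and vehicle animal. Single dose 5 was not high, and vehicle ran from 0 to 0.0818 CPM. With single dose 5 left out, the gene passed the filter through the remaining single-dose libraries, single dose 1 included. It was then the 1 gene called by edgeR. Since it could pass only by its values in 1 group, that call is a description of these libraries and no test.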

How the data were processed

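RNA-seq of right ventricular tissue was deposited as 1 table of whole-number read counts per gene. Per the submitters' processing notes, the authors' tools were HISAT2 2.1.0 and Subread 1.6.2 (build Sscrofa11.1), besides SAMtools 1.7, Trimmomatic 0.33 and FastQC 0.11.7. Strandedness and gene annotation version are not stated in what was used here, so overlapping and antisense genes cannot be told apart. Here the deposited counts were analysed in R 4.3.3. Genes were kept by edgeR 4.0.16's filterByExpr, scaled by TMM and tested by its robust quasi-likelihood test over all 17 libraries, contrast multidose minus single dose, with Benjamini-Hochberg adjustment over 15884 genes and a threshold of 0.05. CPM values are TMM-scaled. DESeq2 1.42.0, limma 3.58.1 (voom with sample weights), other scalings and filters, name covariates and leaving out libraries were alternatives. The code was tested on simulated data. Of 35670 genes 18030 had no symbol, and 119 were named from the reference.

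Genes are named by rule: the 10 per direction with the smallest p among those with a symbol and at least 1 CPM, genes without overlap, members among the 4 with the smallest p in each list or their partners, and 9 genes of cardiac stress, matrix and vessels, TSPOAP1 included. The 46 lists (1173 of 1368 members tested) and the comparison were chosen with earlier results of these data known. Y-linked genes served as a covariate and are described by library only. How much of the spread was counting error and how much lay between animals was not measured.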

Additional observations from a re-analysis of the deposited data

Results flagged for a closer look

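In 27 of 204 groups (102 named genes in 2 dosed groups), 1 animal lay further from its group than Dixon's criterion at the 95% level allows on log2 CPM, a criterion that chance meets in about 5% of groups. Multidose 5 accounts for 9 of them and single dose 1 for 9. Multidose 1 was above the rest of its group, at 20.8 CPM for HECTD2 (others 8.38 to 12.4) and 16.1 CPM for TMEM38B (others 9.75 to 11.2). Single dose 3 was above the rest of its group, at 36.1 CPM for GPAT3 (others 21.3 to 23.4) and 41.3 CPM for BTNL9 (others 24.1 to 25.5). Multidose 6 was below the rest of its group, at 84.8 CPM for FABP4 (others 183 to 275) and 0.321 CPM for SOSTDC1 (others 0.896 to 1.67). Single dose 1 was below the rest of its group, at 1.2 CPM for PDZD9 (others 2.14 to 2.48), 11.6 CPM for NPPB (others 898 to 1507) and 0.736 CPM for CD6 (others 1.9 to 2.71). Single dose 1 was below the rest of its group, at 552 CPM for FHL1 (others 1488 to 2201). Single dose 5 was below the rest of its group, at 7.89 CPM for TMEM38B (others 9.47 to 9.62). Multidose 5 was above the rest of its group, at 1632 CPM for ISG15 (others 13 to 28.1), 262 CPM for IRF7 (others 6.14 to 13.6) and 2174 CPM for IFI6 (others 64.2 to 138). Multidose 5 was above the rest of its group, at 539 CPM for CXCL10 (others 7.07 to 22.7), 130.2 CPM for PSME2 (others 35.1 to 51.5) and 243 CPM for TAP1 (others 26.2 to 42.9). Multidose 5 was above the rest of its group, at 37 CPM for FCGR1A (others 2.08 to 4.97) and 188 CPM for CRY2 (others 59.6 to 94.8). Single dose 1 was above the rest of its group, at 91.6 CPM for ISG15 (others 16.4 to 22.9), 276 CPM for IFI6 (others 56.7 to 73.6) and 131 CPM for NR4A1 (others 27.4 to 39.2). Single dose 1 was above the rest of its group, at 394 CPM for RPL22 (others 162 to 209) and 909.8 CPM for RPS27A (others 387 to 492). Multidose 1 was below the rest of its group, at 1.19 CPM for TBX21 (others 2.37 to 3.53). Multidose 6 was above the rest of its group, at 2.09 CPM for MYBPC2 (others 0.826 to 1.23). Multidose 5 was below the rest of its group, at 6.93 CPM for APAF1 (others 14.3 to 24). The groups of interferon and antigen presentation genes share the same animal, and the genes are not independent of each other. The cause of these values was not tested.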

How the results depend on the processing

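The number of genes called at an adjusted p under 0.05 stayed at 0 under 33 of 34 settings. Of these settings 32 were planned and the rest added after the data were seen. Leaving out 1 library at a time gave 0 to 1. The 1 gene was ACSM5, without single dose 5, which then passed the filter only through the remaining single-dose libraries. The number at an unadjusted p under 0.05, 335 in all, was 784 with no low-count filter, 1607 with limma-voom, 204 with the name suffix R as a covariate, 203 with only libraries carrying it, and 1058 without multidose 5 and single dose 1. Leaving out 1 library gave 203 to 764. With the replicate block it was 1037. Deviations of log2 CPM from the group mean were correlated between same-numbered animals, at 0.41, 0.12, -0.22, -0.13 and 0.15. Only number 1, where both libraries have M1 names, correlated best with its own number. The numbers were therefore not taken as pairs. Genes without overlap, 11 in all, were 23 with no filter, 639 without the M1 libraries and 170 without multidose 5 and single dose 1, and 11 to 80 leaving out 1 library; fewer animals leave less room for overlap. Of 3462 log2 fold changes of 102 named genes under these settings, 86 changed sign and 0 crossed the threshold, and 72 genes never changed sign. The log2 fold changes of opposite sign were these. With the M1 name as a covariate, 0.63 for NPPA, 0.99 for NPPB, 0.10 for MYH7, -0.37 for COL3A1, -0.023 for PECAM1 and 0.033 for FHL1. Without the M1 libraries, 0.77 for NPPA, 0.23 for NPPB, 0.14 for MYH7, -0.39 for COL3A1, -0.10 for PECAM1, 0.056 for NR4A1, 0.29 for FOSB, 0.0052 for BMAL1, -0.023 for MYL2 and 0.012 for SOSTDC1. With the name suffix R as a covariate, 0.57 for NPPA, 0.51 for NPPB and -0.031 for COL3A1. With only the libraries named with that suffix, 0.56 for NPPA, 0.13 for NPPB, -0.046 for MYH6, -0.024 for ISG20, -0.50 for CXCL10, -0.032 for TAP1 and 0.040 for BMAL1. Without the M1 libraries and multidose 5, 1.09 for NPPA, 0.59 for NPPB, -0.19 for MYH6, -0.49 for COL3A1, 0.16 for VEGFA, -0.019 for PECAM1, -0.26 for CXCL10, -0.042 for B2M, -0.069 for PSME2, -0.0012 for TAP1, 0.085 for FOSB, 0.26 for BMAL1, -0.089 for KCNA5, -0.051 for MYL2, -0.11 for TNNC1, 0.027 for DLL4, -0.0046 for TGFBR1, -0.022 for ATP5PF, -0.024 for RPS24, -0.12 for RPL22 and -0.087 for RPS27A. With limma-voom, -0.027 for MYH6, -0.81 for ISG20, -0.80 for CXCL10 and -0.21 for TAP1. Without multidose 5 and single dose 1, -0.092 for MYH6, -0.12 for IRF7, -0.59 for ISG20, -0.91 for CXCL10, -0.23 for TAP1 and -0.014 for FCGR1A. With DESeq2, -0.62 for ISG15, -0.32 for IRF7, -0.025 for IFI6, -0.44 for ISG20, -0.66 for CXCL10, -0.23 for TAP1 and -0.30 for FCGR1A. With the replicate block, -0.25 for CXCL10. As run here, DESeq2 replaces outlying counts only in groups of at least 7 animals, so in multidose and not in single dose. The cause of the sign changes was not tested for any setting. Leaving out 1 library gave ranges of -1.33 to 0.39 for NPPA, -0.022 to 0.24 for MYH6, -0.17 to 0.049 for MYH7, -0.080 to 0.39 for COL3A1, -0.65 to 3.75 for ISG15, -0.37 to 2.14 for IRF7, -0.023 to 2.60 for IFI6, -0.56 to 2.22 for ISG20, -0.81 to 2.06 for CXCL10, -0.28 to 0.79 for TAP1 and -0.32 to 1.18 for FCGR1A. Of 1564 list medians, 16 moved by more than the pooled SD of the list's level between libraries within the dosed groups. That SD holds the M1 split and multidose 5 too, so a list can turn direction within it. The count is therefore no measure of how many lists turned. Scalings moved the median of all genes by less than 0.1. Depth limits genes near 1 CPM, and the p-values rest on 7 and 5 animals whose sex, weight, time and batch were not given in the labels.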
